A study of Mus musculus with 7 samples.

Results

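The sites described here are wide stretches of the mouse genome that were bound by Zfp281 in embryonic stem cells (ESCs) and had no Zfp281 peak in extraembryonic endoderm stem cells (XENs). They were chosen by 3 measured values of chromatin immunoprecipitation sequencing (ChIP-seq) peak lists: an ESC Zfp281 peak had to be at least 1500 bp wide, to overlap no XEN Zfp281 peak and to overlap no ESC Suz12 peak by 1 bp or more. On chromosomes 1 to 19 and X, 2556 of 52266 ESC Zfp281 peaks met all 3 conditions, or 4.89% of the peaks, and they covered 5.15 Mb, or 12.95% of the length of all ESC Zfp281 peaks there. ESCs and XENs of strain 129S1, both grown without feeder cells, were immunoprecipitated with antibodies against Zfp281 and Suz12, and XENs also against H3K27me3. ESCs were kept in serum with leukemia inhibitory factor (LIF), and XENs in medium conditioned by mouse embryonic fibroblasts. One Zfp281 antibody served both cell types. The labels give 7 groups of 1 sample each. The lists of ESC Zfp281, XEN Zfp281 and ESC Suz12 carry the results below, and no genetic change or drug is named for any of them. With 1 library per group no spread between replicates is known, and no test of a difference between cell types could be made.

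Zfp281 is a zinc finger transcription factor that binds G-rich DNA. In ESCs it is known as a partner of pluripotency factors such as Nanog and of chromatin regulators such as the NuRD complex and Tet1. Suz12 is a core subunit of Polycomb repressive complex 2, which places H3K27me3 on developmental genes that are kept silent. ESCs can form all lineages of the embryo, whereas XENs are the stem cells of the lineage that forms the yolk sac endoderm, and the study asked how Zfp281 restrains the passage from the first state to the second. The wide sites below therefore lie outside ESC Suz12 peaks and were found in the pluripotent state. Positions are in the mm9 build named in the submitters' processing notes. The genes at these positions and their sequences were not analysed here, since only tables of a later build could be used.

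Among all ESC Zfp281 peaks on these chromosomes, 8.06% were 1500 bp or wider, 94.9% had no XEN Zfp281 peak, 92.2% had no Suz12 peak and 87.5% had neither. Absence from the XEN list was thus the rule for ESC sites in general. The lists differed greatly in size. The whole XEN Zfp281 list held 3449 peaks over 1.52 Mb, and the whole ESC Zfp281 list 52296 peaks over 39.8 Mb. For Suz12 there were 4 peaks in XENs and 8184 in ESCs. The part of list size in the absence was not tested. Of the 4211 wide peaks 60.7% had neither overlap, against 89.9% of the narrower ones. Of the wide peaks, 81.2% had no XEN Zfp281 peak and 76.9% had no Suz12 peak. The other wide peaks fell into 684 with an XEN Zfp281 peak alone, 865 with a Suz12 peak alone and 106 with both. Since these overlaps are what the sites were chosen by, the percentages describe the choice and test nothing.

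The sites ranged in width from 1500 to 7284 bp, with a median of 1835.5 bp and quartiles of 1636 and 2189 bp. Most lay close to the lower limit. There were 488 sites of 1500 to 1599 bp, 919 sites of 2000 bp or more, 153 of 3000 bp or more and 12 of 5000 bp or more. The limit of 1500 bp cuts through a continuous range: the 274 sites of 1500 to 1549 bp had a median fold enrichment of 11.6, and the 258 peaks of 1450 to 1499 bp with the same lack of overlaps had one of 10.5. Fold enrichment is the authors' own value for each peak and gives the height of the ChIP signal at the summit over the level expected there. Just inside the limit were peaks of 1500 bp at chr4:150512995-150514494 with a 21.6-fold enrichment, at chr17:10590128-10591627 with 19.5-fold and at chr4:130218556-130220055 with 14.04-fold. Just outside it were peaks of 1499 bp at chr12:85261739-85263237 with 17.7-fold, at chr10:75259323-75260821 with 7.62-fold and at chr8:124703314-124704812 with 7.94-fold.

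The ESC signal at the sites was strong. Their fold enrichment had a median of 13.4, quartiles of 9.23 and 19.4 and a highest value of 81.5, while narrower peaks with neither overlap had a median of 5.14. The number of sequenced fragments (tags) at each summit was recovered from the deposited fold and p-value. The sites had a median of 65 tags at the summit (quartiles 45 and 94), against 23 in the narrower peaks with neither overlap. Wide peaks that overlapped only an XEN Zfp281 peak were higher than the sites, with a median fold of 22.4 and 113 tags. Wide peaks that overlapped only a Suz12 peak were close to the sites in height, with a median fold of 13.5 and 66 tags. Width and height come from one library and were linked by the choice of wide peaks, so these values are given as a description.

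**Figure D1:**
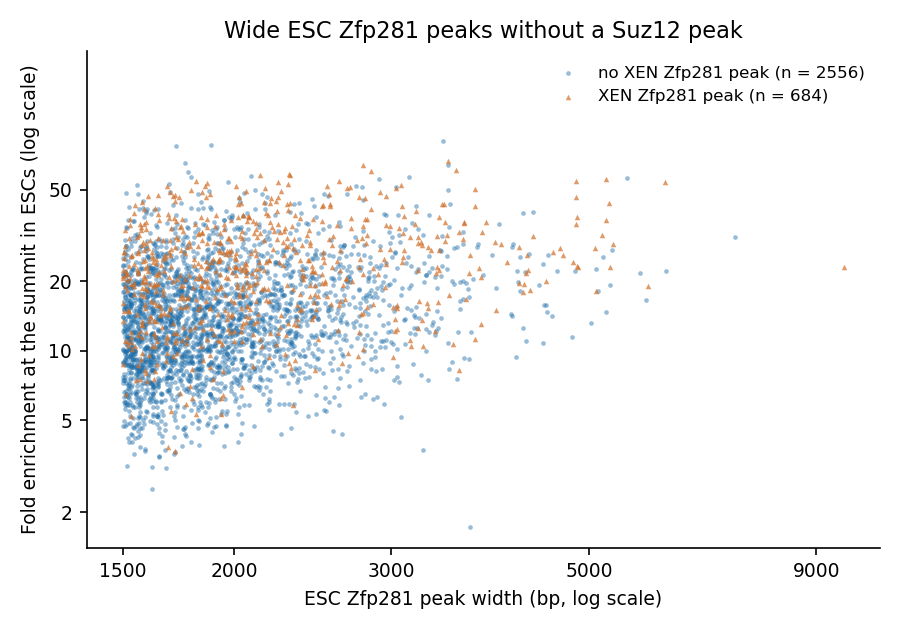
Width and fold enrichment of the 3240 wide ESC Zfp281 peaks without a Suz12 peak, on log scales, with 1 point per peak (dots: the 2556 without an XEN Zfp281 peak, triangles: the 684 with one). The triangles lie higher on the fold axis, with a median of 22.4 against 13.4, and both kinds occur over most of the range of widths.

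Within the sites, width and height were only weakly related. Across the 2556 sites Spearman's rho between width and fold was 0.21 and Pearson's r of the log2 values 0.23. All points share 1 library, and the correlation is a description. In the narrowest 639 sites, of 1500 to 1636 bp, the median fold was 11.5 and the median number of tags 56. In the widest 639, of 2190 to 7284 bp, the median fold was 15.8 and the median number of tags 79, so a wide site was not necessarily a high one.

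The highest sites were among the strongest Zfp281 peaks of the ESC list. The sites, 4.89% of all ESC peaks, made up 5 of the 10 ESC peaks with the highest -log10 q-value, 26 of the first 100 and 247 of the first 1000. Since wide peaks were chosen and wide peaks are high, these counts follow in part from the choice. The first of them was also the first of the whole ESC list. It lay at chr11:95850633-95854060, spanned 3428 bp, had 326 tags at its summit and an 81.5-fold enrichment, and 6376 bp separated it from the nearest XEN Zfp281 peak. The second, at chr15:38007249-38009133, was 1885 bp wide and had 312 tags, a 78.0-fold enrichment and no XEN Zfp281 peak within 373364 bp.

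The third, at chr8:108216241-108218786, ranked 4 in the ESC list. Its 375 tags were the most of any site, but its expected level was also raised, at 6.97 tags, so its fold was 47.2. The fourth, at chr4:150051218-150052937, ranked 5 with 309 tags (77.2-fold). The next, at chr17:27691123-27696645, ranked 7 with 344 tags (56.4-fold) and was at the same time one of the 5 widest sites, at 5523 bp. These 5 sites share no chromosome, and their distance to the nearest XEN Zfp281 peak ran from 6376 to 373364 bp.

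The next 5 sites by -log10 q-value had folds of 48.9 to 65.5 and 256 to 313 tags. They lay at chr8:86520159-86521854, chr19:45856769-45858542, chr2:152236176-152237937, chr1:182741884-182744922 and chr4:140257320-140260795, with ESC ranks of 20, 24, 26, 27 and 30. Their nearest XEN Zfp281 peaks were 193783, 261733, 286828, 36033 and 579265 bp away in that order. Of the 10 highest sites, the first thus had the nearest XEN peak and the tenth the most distant.

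The widest sites were higher than the median site but, apart from the one on chromosome 17 named above, not among the highest. The widest, at chr8:86420978-86428261, spanned 7284 bp with a 31.1-fold enrichment and 177 tags and ranked 415 in the ESC list. The next was at chr8:123076975-123083081 (6107 bp, 22.1-fold, rank 1763), followed by chr10:80598801-80604594 (5794 bp, 16.6-fold, rank 2735) and chr8:123058535-123064242 (5708 bp, 21.8-fold, rank 756). The second and the fourth of these lay near each other on chromosome 8, with other ESC Zfp281 peaks between them. The next ESC Zfp281 peak was 161, 711, 221 and 596 bp away from the 4 in that order. The summit of the second lay at 13.4% of its length and that of the fourth at 23.1%, so most of each peak extended to one side.

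Only 1 site had a high expected level. The peak at chr17:39980069-39983749 had 345 tags over an expected level of 200.1 tags and hence the lowest fold of all sites, 1.72. It was singled out after its values were seen. The next highest expected level was 10.96 tags, so no other site held a comparable case. The site lay 1430 bp from an XEN Zfp281 peak and 540 bp from an ESC Suz12 peak.

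The summit was often off centre. It fell in the central part of the peak, from 25 to 75% of its length, at 74.3% of the sites (95% Wilson interval 72.5 to 75.9%) and at 89.6% of narrower peaks with neither overlap (89.3 to 89.9%), a difference of -15.3 percentage points (95% Newcombe interval -17.1 to -13.6). The median distance from the summit to the nearer edge was 639 bp and to the farther edge 1244 bp, against 216 and 307 bp in the narrower peaks. Wide peaks with only an XEN Zfp281 peak had a similar share, 76.9% (73.6 to 79.9%), and the interval of that difference, -6.11 to 1.05 points, includes 0. Within the sites the share was 78.2% in the 639 narrowest and 68.1% in the 639 widest. The position is measured along the width, by which the sites were chosen, so the contrast with narrower peaks is a description. All intervals here reflect counting error alone, and peaks near each other are not independent measurements.

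**Figure D2:**
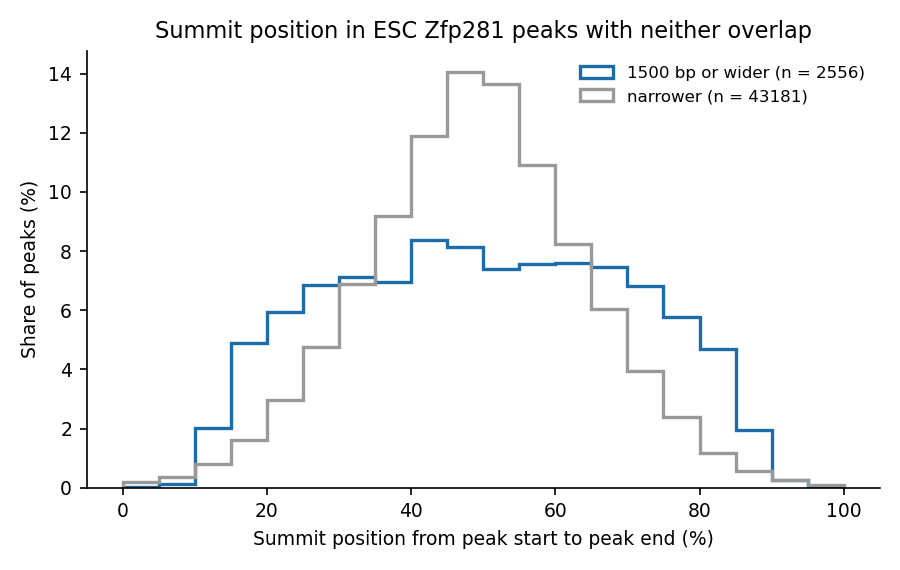
Summit position along the peak, from its start to its end in percent, as the share of peaks per bin of 5%, for the 2556 wide sites and the 43181 narrower peaks with neither overlap. The narrower peaks concentrate around the centre, while the wide sites form a broad, flat-topped distribution, which leaves 74.3% against 89.6% between 25 and 75%.

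Absence from the XEN list was counted by ESC signal among all wide peaks without a Suz12 peak, of which the sites are a part. Every site lacks an XEN peak by the choice, so the shares are a description. The 3240 wide peaks without a Suz12 peak were divided into 10 equal groups by ESC fold, and the share without an XEN Zfp281 peak was counted in each, with 78.9% over all of them. In the lowest group, with a median fold of 5.98, 309 of 324 peaks had no XEN peak, or 95.4% (92.5 to 97.2%). In group 5, with a median of 13.7, the share was 86.1% (81.9 to 89.5%). In the highest group, with a median of 38.0, it was 47.5% (42.2 to 53.0%), so that 154 of the strongest 324 wide peaks still had none. Both the overlap and the width entered the choice of sites, and a wider peak can meet an XEN peak over more bases. Also as a description only, the share was 83.8% in the narrowest 648 peaks and 69.0% in the widest 648.

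**Figure D3:**
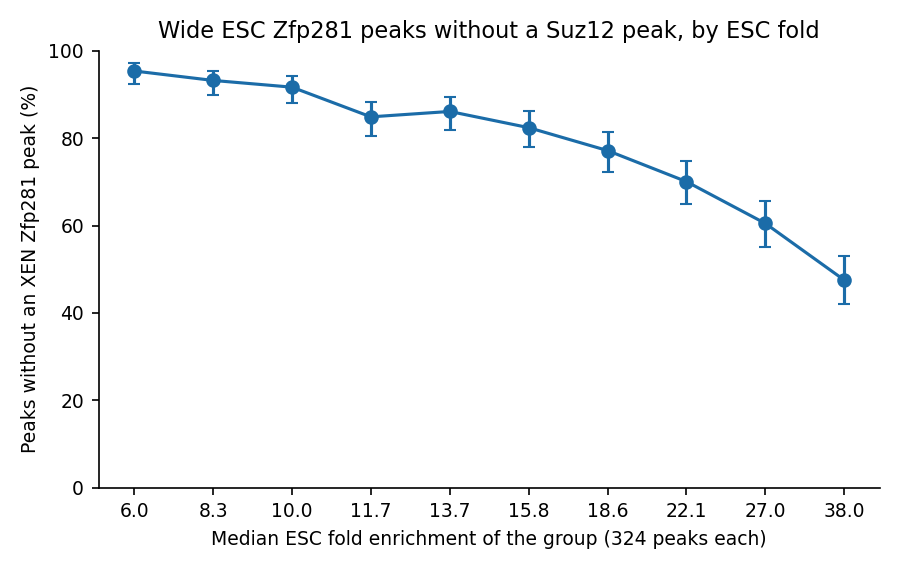
Share of wide ESC Zfp281 peaks (no Suz12 peak) without an XEN Zfp281 peak, in percent, in each of 10 equal groups by ESC fold enrichment, labelled by the median fold of the group. Points are shares of 324 peaks and bars are 95% Wilson intervals. The share goes from 95.4% in the lowest group to 47.5% in the highest.

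The heights that peaks reached in XENs are set beside these values as a description. The median fold of the whole XEN Zfp281 list was 6.35, and 2361 of the 2556 sites, or 92.4%, had an ESC fold at or above it. This share follows in part from the choice of wide peaks and was not counted for other ESC peaks. Narrower peaks with neither overlap had a median ESC fold of 5.14 and an upper quartile of 7.31. Wide peaks with only an XEN peak had a 5th percentile of 8.92. A fold of 13.9, the 95th percentile of the XEN list, was reached in ESCs by 1197 sites. At the 684 wide peaks that did have an XEN peak, the XEN fold was lower than the ESC fold in 658 cases, with medians of 7.03 in XENs and 22.4 in ESCs and a median ratio of 0.339. Of the sites, 444 had an ESC fold at or above 22.4. The folds of the 2 libraries were not put on one scale, and a list of peaks does not show the XEN signal below the authors' threshold, so the sites are absent from the XEN list and not shown to be without binding in XENs.

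The sites were closer to XEN Zfp281 peaks than narrower ESC peaks with neither overlap were. Overlap with an XEN peak was barred in the sites and in the classes set beside them here. The distances are thus cut off by the choice, and the shares are a description. An XEN Zfp281 peak lay within 10 kb of 291 sites, or 11.4% (10.2 to 12.7%), against 7.46% (7.21 to 7.71%) of narrower peaks with neither overlap, a difference of 3.93 points (2.73 to 5.24). Wide peaks with only a Suz12 peak had a share of 6.94% (5.43 to 8.83%), 4.45 points below that of the sites (2.22 to 6.43). The median distance to the nearest XEN peak was 101326 bp for the sites, 163060 bp for the narrower peaks and 188190 bp for the wide peaks with only a Suz12 peak. Within 1 kb there was an XEN peak at 29 sites, or 1.13%. The share was 0.829% for the narrower peaks and 0.462% for the wide peaks with only a Suz12 peak, and the intervals of both differences include 0. No XEN peak lay within 100 kb of 50.4% of the sites, against 61.9% of the narrower peaks and 66.5% of the wide peaks with only a Suz12 peak.

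Around those 291 sites lay 316 XEN Zfp281 peaks. Of these, 290 were on another ESC Zfp281 peak, or 91.8% (88.2 to 94.3%), and 145 were on another wide one, or 45.9% (40.5 to 51.4%). Of all 3449 XEN peaks, 80.8% (79.5 to 82.1%) were on an ESC Zfp281 peak and 26.3% (24.8 to 27.8%) on a wide one, so most XEN peaks anywhere had an ESC peak. The 316 are part of the 3449, and the difference was not tested. Their median XEN fold was 6.57, beside 6.35 for the whole XEN list. At the 290, another ESC peak near the site had a peak in XENs while the wide site had none. Whether further ESC peaks lay between the 2 was not counted. Among pairs of neighbouring wide peaks without a Suz12 peak and within 50 kb of each other, both lacked an XEN peak in 694 of 1074 pairs (64.6%), 1 of the 2 lacked it in 305 and both had one in 75. Within 10 kb both lacked it in 236 of 399 pairs (59.1%). Over all such peaks, paired or not, 78.9% lacked one. That is a share of single peaks, and the shares of pairs cannot be compared with it directly. Whether neighbours share the absence more or less often than other peaks was not tested.

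An ESC Suz12 peak was near some of the sites although none overlapped one. Here too the choice cut off the distances, in the sites and in the classes set beside them, and the shares are a description. An ESC Suz12 peak lay within 10 kb of 322 sites, or 12.6% (11.4 to 13.9%), against 10.1% (9.86 to 10.4%) of narrower peaks with neither overlap, a difference of 2.45 points (1.19 to 3.83). For wide peaks with only an XEN peak the share was 9.80% (7.79 to 12.3%), 2.80 points lower than for the sites (0.0543 to 5.22). Within 1 kb the counts were 80 sites, or 3.13% (2.52 to 3.88%), against 2.16% (2.03 to 2.305%) of the narrower peaks. The median distance to the nearest Suz12 peak was 81526 bp. The 4 XEN Suz12 peaks and the single XEN H3K27me3 peak are too few to describe the sites: none of the sites and 5 of all 52266 ESC Zfp281 peaks lay within 10 kb of one.

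Other ESC Zfp281 peaks surrounded the sites. Another ESC peak lay within 10 kb of 79.7% of them (78.1 to 81.2%), against 63.3% (62.8 to 63.7%) of narrower peaks with neither overlap, a difference of 16.4 points (14.8 to 18.01). The median distance to the next ESC peak was 2888 bp, against 5611 bp. This density was shared by the other wide peaks. The share was 80.0% (76.8 to 82.8%) for those with only an XEN peak, with an interval of the difference of -3.53 to 3.23 points, and 80.3% (77.6 to 82.9%) for those with only a Suz12 peak, with an interval of -3.63 to 2.51. A second ESC peak within 500 bp was found at 17.5% of the sites (16.1 to 19.01%), at 11.3% of the narrower peaks (10.98 to 11.6%) and at 23.1% of the wide peaks with only a Suz12 peak (20.4 to 26.0%).

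**Figure D4:**
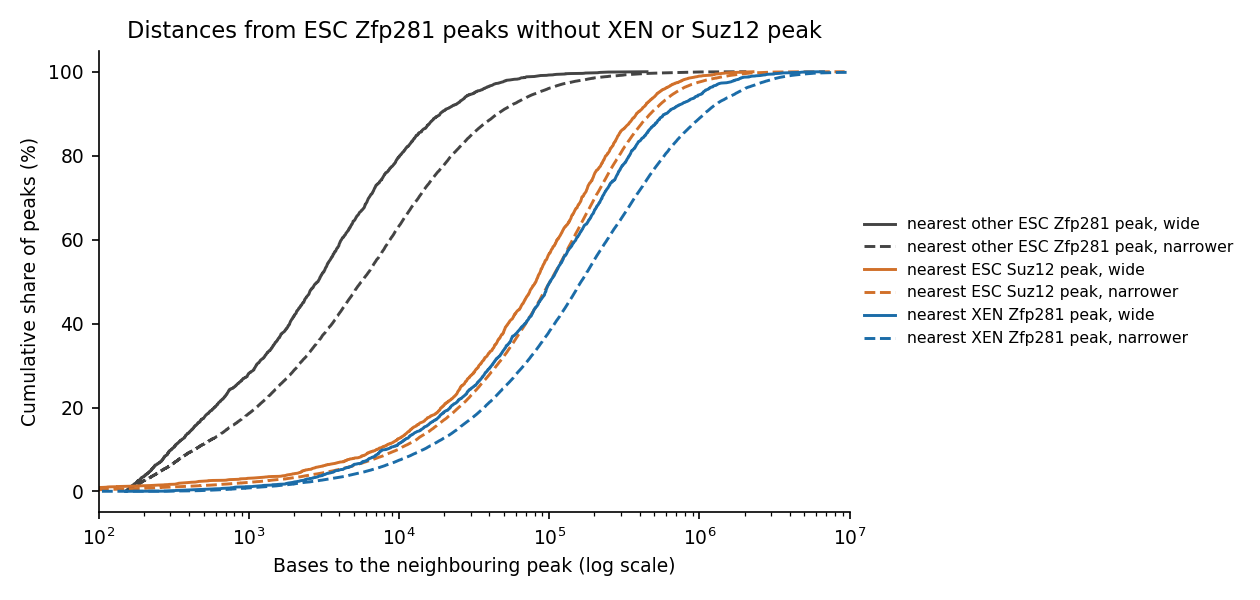
Cumulative share of peaks, in percent, by the number of bases to the nearest other ESC Zfp281, ESC Suz12 or XEN Zfp281 peak (log scale), for the 2556 wide sites (solid lines) and the 43181 narrower peaks with neither overlap (dashed lines). The solid line lies to the left of the dashed one in each pair, with medians of 2888 against 5611 bp for ESC and 101326 against 163060 bp for XEN Zfp281 peaks.

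Many sites lay in runs. When sites with at most 50 kb between them were joined, a distance chosen after seeing the data, 1163 of the 2556 sites, or 45.5%, were in 432 runs of 2 or more, and 31 runs held 5 or more sites. With 10 kb in its place 439 sites were in runs, and with 100 kb 1529. Runs were not counted for other ESC peaks, so lying in runs is not shown to be particular to the sites. Of the 31 long runs, which spanned 40.4 to 236 kb, 18 held no XEN Zfp281 peak, 19 no ESC Suz12 peak and 11 neither. The sites themselves were chosen to lack both kinds of peak, so these counts follow in part from the choice. Of single sites, 50.4% had no XEN peak within 100 kb. How often other stretches of such length lack these peaks was not counted, so the lack is not shown to be particular to the runs. Chromosome 4 held 7 of the long runs and 9.78% of the sites, and chromosome 8 held 6 and 9.12%. Chromosome 11, with the most sites at 10.7%, held 3.

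The largest run, at chr4:140189437-140425594, had 14 sites within 236 kb, among 36 ESC Zfp281 peaks in all. It contained no XEN Zfp281 peak and no ESC Suz12 peak, and every site in it was at least 414466 bp from the nearest XEN peak. Its sites had folds from 6.23 to 64.0 with a median of 12.96, and widths from 1503 to 3476 bp. The highest was the peak at chr4:140257320-140260795 named above, with 256 tags, and the next was at chr4:140329539-140331175 with 140 tags and a 28.3-fold enrichment. The run thus joined 1 very strong site with many of ordinary height.

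The second run, at chr8:123008934-123088894, had 11 sites within 80.0 kb, with folds of 7.30 to 29.1, and included the 2 very wide neighbours described above. It held 19 ESC Zfp281 peaks and no peak of the XEN Zfp281 or ESC Suz12 lists. The third, at chr4:132529662-132677136, had 10 sites among 32 ESC peaks and 1 XEN Zfp281 peak.

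The number of sites per chromosome in part followed the number of ESC Zfp281 peaks. Chromosome 11 had the most sites, 273, or 10.7% of them, and also the most ESC peaks, 8.18%. Chromosome X had the fewest of both, with 16 sites, or 0.626%, and 1.401% of ESC peaks. Chromosome 4 had 250 sites, or 9.78%, and 7.25% of ESC peaks. Among wide peaks without a Suz12 peak, the share without an XEN peak was highest on chromosome 4, at 88.0% (83.7 to 91.3%), and chromosome 13, at 85.9% (76.5 to 91.9%). On the other 17 autosomes it ran from 68.8 to 84.6%, and on chromosome X it was 61.5% of 26 peaks (42.5 to 77.6%). The 2 chromosomes held 12.4% of the sites (11.2 to 13.7%) and 6.58% of the wide peaks with only an XEN peak (4.95 to 8.69%). Overlap with an XEN peak is what separates these classes, and the 2 chromosomes were picked for their values, so this is a description. Against classes without an XEN peak the intervals of the difference include 0: they held 11.3% of narrower peaks with neither overlap (difference 1.10 points, -0.158 to 2.47) and 10.5% of wide peaks with only a Suz12 peak (1.88 points, -0.654 to 4.18).

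The same 2 chromosomes had the lowest expected levels at XEN Zfp281 peaks. The expected level at XEN Zfp281 peaks was above its lowest value in the list at 40.2% of the 122 XEN peaks of chromosome 4 (31.9 to 49.0%) and 53.1% of the 96 of chromosome 13 (43.2 to 62.8%), against 66.2 to 98.4% on the other autosomes. Its median was 2.36 tags on chromosome 4 and 2.57 on chromosome 13, and 3 to 4 tags on the other autosomes. On chromosome X, where the share of wide peaks absent in XENs was lowest, the share with a raised level was 68.9% and the median 2.83 tags. In the ESC list, 51.7% of the peaks of chromosome 4 and 44.4% of those of chromosome 13 were above the lowest level, and the other autosomes spanned 43.2 to 94.3%. Across all 20 chromosomes the share of XEN peaks with a raised expected level and the share of wide peaks absent in XENs had a Pearson's r of -0.36 and a Spearman's rho of -0.34. Without chromosomes 4 and 13 these were 0.049 and -0.096, so the relation rests on those 2 points. The part of the XEN background in the absence of these sites was not tested.

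**Figure D5:**
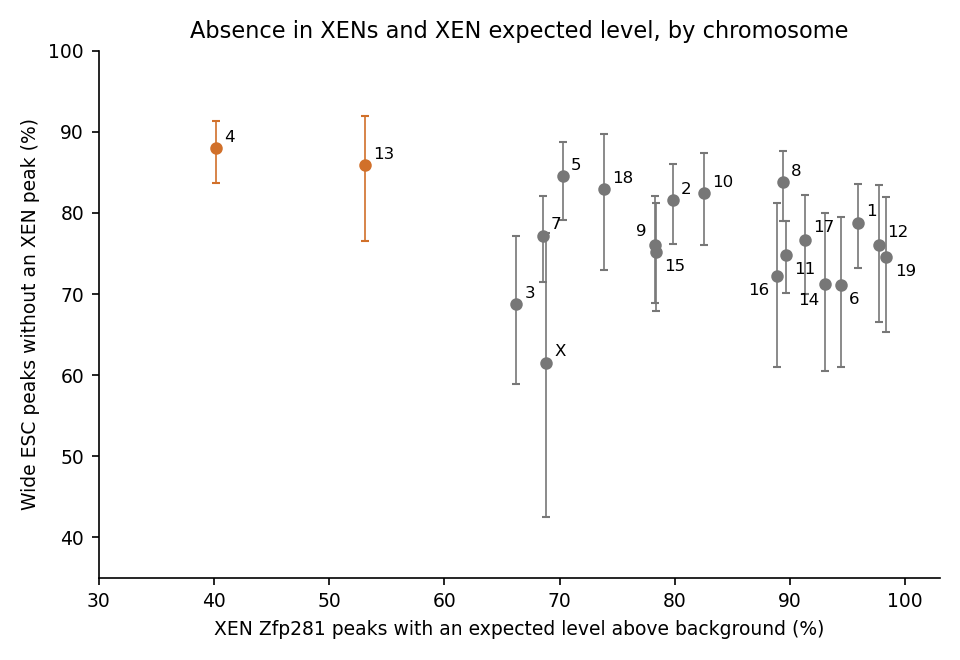
Share of wide ESC Zfp281 peaks (no Suz12 peak) without an XEN Zfp281 peak, in percent with 95% Wilson intervals, against the share of XEN Zfp281 peaks with an expected level above the lowest of the list, with 1 point per chromosome. Chromosomes 4 and 13 (orange) lie at the upper left, at 88.0% and 85.9% on the vertical axis and 40.2% and 53.1% on the horizontal, and the other 18 had a Pearson's r of 0.049.

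The values of chromosomes 4 and 13 by ESC fold are given as a description. Wide peaks without a Suz12 peak had a median ESC fold of 14.6 there, and one of 14.7 on the remaining autosomes. In the lowest of 3 equal groups by ESC fold, 93.0% on the 2 chromosomes and 92.5% on the others had no XEN peak. In the middle group the shares were 95.3 and 82.1%, and in the highest group 74.2 and 59.2%. Among narrower ESC peaks without a Suz12 peak, none of which is among the sites, 2.34% (1.96 to 2.80%) met an XEN peak on the 2 chromosomes together. On the other autosomes 4.06% (3.87 to 4.26%) did. The lower share was that of chromosome 4, at 1.81%. Chromosome 13, at 3.33%, lay within the range of the other autosomes, 2.57 to 5.96%.

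On the ESC side, chromosomes 1 and 8 stood apart at the upper end and chromosome X at the lower. On chromosome X 8.61% of the ESC peaks had an expected level above the lowest of the list. On the autosomes other than 1 and 8 the share ran from 43.2% (chromosome 6) to 56.5% (chromosome 11). The expected level was above its lowest value at 93.3% of the ESC peaks of chromosome 1 and 94.3% of those of chromosome 8. These 2 chromosomes held 16.4% of the sites (15.0 to 17.9%) and 14.7% of narrower peaks with neither overlap (14.4 to 15.1%), a difference of 1.67 points (0.246 to 3.19). Against the wide peaks with only an XEN peak, of which they held 13.9%, the interval of the difference was -0.614 to 5.32 points. Chromosome 8 held 9.12% of the sites and 6.77% of all ESC peaks, whereas chromosome 1 held 7.28 and 7.77%.

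The expected level was raised at many sites, though not at them in particular. It was above the lowest value at 67.4% of them (65.5 to 69.2%), against 53.8% (53.4 to 54.3%) of narrower peaks with neither overlap, a difference of 13.5 points (11.6 to 15.4), and 78.2% (74.97 to 81.1%) of wide peaks with only an XEN peak, a difference of -10.8 points (-14.3 to -7.14). Wide peaks with only a Suz12 peak had a share of 66.2%, with an interval of the difference of -2.46 to 4.81 points, and narrower peaks with only an XEN peak one of 66.2%, with an interval of -1.69 to 4.01. Without chromosomes 1 and 8 the share of the sites was 61.4%. Its median was 3.61 tags at the sites, 3.25 at the narrower peaks with neither overlap and 3.99 at the wide peaks with only an XEN peak, and its part in their heights and widths was not tested.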

How the data were processed

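The authors deposited 1 peak list for each immunoprecipitated sample. The submitters' processing notes name the mm9 build, Bowtie2 2.3.4 and SAMtools 0.1.19; the peak caller and the control are not given in the sources used here. Reads were paired and 150 bp long, per the labels. The deposited columns give each peak's score, fold enrichment (a ratio) and the -log10 of its p-value and q-value, made by the authors. The deposited score equals 10 times the -log10 q-value without decimals.

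Gaps, overlaps, 95% Wilson intervals of shares and 95% Newcombe intervals of their differences were computed with Python 3.11.15, numpy 2.4.6, pandas 2.3.3 and scipy 1.17.1, and the functions were tested on simulated data. Summit tags and expected level were solved from fold, taken as tags plus 1 over expected level plus 1, and the Poisson p-value. All 52296 ESC and 3448 of 3449 XEN Zfp281 peaks matched within 0.002, with XEN tags scaled by 0.815. Whether the expected level comes from the input samples is not given in the sources used here. A level more than 1.01 times the lowest, 3.01 tags in ESCs and 2.36 in XENs, counted as raised. The depth of the libraries was otherwise unknown, and each share has only counting precision.

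Groups came from sample titles. Named sites are the 10 highest by -log10 q-value, the 5 widest and 3 on either side of the width limit; others are marked as chosen after seeing values. Members, lists and divisions were chosen with earlier results of these data known. Alternatives were other widths, distances, overlaps, merging, score limits and chromosomes. Planned results on start sites, CpG content, motifs and gene lists were not run, because the reference tables used the GRCm38 build. The 30 ESC peaks on other chromosomes were left out.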

Additional observations from a re-analysis of the deposited data

How the results depend on the processing

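No paired analysis was possible because there was a single library in every group. Of 47 alternative values, 30 stayed within 1.5 times the count or within the Wilson interval of the share, and 17 moved. The number of sites is set by the width limit: it was 7708 with a minimum of 1000 bp and 919 with 2000 bp. With 1000 bp, the share with another ESC Zfp281 peak within 10 kb was 74.8%, with an XEN Zfp281 peak 9.47%, with a raised expected level 63.2% and with the summit between 25 and 75% of the length 80.4%. With 2000 bp, the share with another ESC peak was 84.2%, on chromosomes 1 and 8 18.1% and with that summit position 70.2%. Counting neighbours within 50 kb gave 97.7% for ESC Zfp281, 33.7% for XEN Zfp281 and 38.3% for ESC Suz12 peaks, since a wider window holds more peaks. When a peak within 1 kb also removed a site, the Suz12 share within 10 kb was 9.76%. In the higher-scoring 50% of sites it was 11.1%, the raised share 69.5% and the share with that summit position 81.03%. Without chromosomes 1 and 8 the raised share was 61.4%. Merging ESC peaks closer than 500 bp gave 3563 sites. Leaving out chromosomes 4 and 13, and all settings for the share on those chromosomes, the raised expected level and the summit position, were added after seeing the data. The planned shares near start sites, in CpG-rich windows and with a G-rich element were not run, with all their alternatives. The lists do not show signal below the authors' threshold, so weak XEN binding at a site was not detectable.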
